A study of Arabidopsis thaliana with 12 samples.

Results

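The VTC2 overexpression line was set against the vtc4 mutant in Arabidopsis thaliana rosettes, on the 6 libraries of these 2 lines among the 12 of the study, with 3 libraries each. The line called OE here is labelled vtc2/OE-VTC2 L15, a single transgenic line in the vtc2-4 background, and vtc4 carries the vtc4-4 allele; vtc2 (vtc2-4) and wild type (WT) plants supplied the other 6 libraries, which are shown only as a description. All plants were untreated, 4 weeks old, raised in short days (8 h light, 16 h dark, 22 °C, 300 µmol photons m-2 s-1) and harvested 30 min after lights on, and each library pooled 8 rosettes. The sources used here do not name the promoter of the transgene or the part of VTC2 it carries. A gene was tested if 3 or more of the 6 libraries gave it 1 or more FPKM (fragments per kilobase of transcript, scaled to library size), a condition met by 16887 of the 33618 genes in the table. The question was which transcripts separate a vtc2 line carrying a VTC2 transgene from a mutant of VTC4, the next enzyme of the same route.

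Plants make most of their ascorbate (vitamin C) from GDP-mannose. GDP-mannose epimerase (GME) forms GDP-L-galactose, VTC2 and its paralogue VTC5 cleave it to L-galactose 1-phosphate, VTC4 removes the phosphate, and L-galactose dehydrogenase (GalDH) and L-galactono-1,4-lactone dehydrogenase (GLDH) finish the molecule. VTC2 is regarded as the main control point of the route in leaves, and VTC4 also acts on inositol phosphates. Mutants of either gene are known for low leaf ascorbate.

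The 6 libraries correlated as closely between the lines as within them. FPKM values were listed without read totals, so depth is unknown and precision rests on the spread between libraries; the FPKM sums ran from 706293 to 757484. Across genes, which do not count as independent replicates, log2(FPKM + 1) of 2 libraries correlated with a Pearson r of 0.984 to 0.9904 within OE, 0.9901 to 0.9909 within vtc4 and 0.9861 to 0.9911 between the lines. Leaf antenna and Rubisco genes were abundant in all 6, with a summed level of 80910 to 91080 FPKM in OE and 88490 to 101800 FPKM in vtc4 over the 21 tested genes of the photosynthesis list. Of 7 root markers, 6 were below the filter, and so were 8 of 9 floral markers. PYK10, also planned as a root marker, passed the filter in these rosettes and is given further on with the ER body genes. The root hair gene EXPA7 was listed at 0 in all 6 libraries, and the floral identity genes AP1 and LFY stayed at or below 0.0376 FPKM. The 9 floral markers, 1 of which passed the filter, summed to 16.8 to 17.7 FPKM in OE and to 17.0 to 19.0 FPKM in vtc4. The 7 root markers, without PYK10, summed to 5.97 to 6.42 FPKM in OE and to 5.97 to 7.05 FPKM in vtc4, nearly all of it from SHR.

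The labels of both lines were checked on the 2 targeted genes. VTC4 was present in OE and nearly absent in vtc4, as the vtc4 label has it. VTC2 was present in OE, far above the vtc2 background, but it was lower than in vtc4 and in WT, although the line is labelled as an overexpression line. The counting of transgene transcripts is not described in the sources used here. Every direction given for OE is therefore a direction of the libraries labelled OE. OE is labelled as vtc2 in background. Further on, 11 tested genes are described that had been named in an earlier analysis of these libraries. For 9 of them the OE mean was nearer to the WT mean than to the vtc2 mean, and for 2 nearer to vtc2. Since the genes were picked from these same libraries, and MRD1 and HEI10 overlap, the tally is a description and no test of the background. The reason was not tested.

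A transcript and 3 upstream regions are printed to show the loci of 4 called genes outside the ascorbate route; no sequence was tested for a part in the differences. AT1G64795, the gene with the largest fitted difference, has an annotated transcript of 201 bases in 2 exons (chr1:24082579-24082746 and chr1:24082816-24082848, plus strand, TAIR10.1), which lies inside ILA on the other strand. Capitals mark its 142 bases that face exons of ILA.
AT1G64795 transcript: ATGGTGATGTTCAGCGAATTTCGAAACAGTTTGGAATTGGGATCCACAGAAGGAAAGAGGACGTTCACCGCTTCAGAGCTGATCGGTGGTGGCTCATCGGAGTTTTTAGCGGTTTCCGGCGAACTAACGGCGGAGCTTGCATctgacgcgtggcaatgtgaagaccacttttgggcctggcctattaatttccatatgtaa
The other 3 sequences are the 200 bases before the annotated starts of MRD1 (chr1:19964713-19964912, minus strand), AT5G11330 (chr5:3618914-3619113, minus strand) and CPK27 (chr4:2388106-2388305, minus strand). They are written 5′ to 3′ on the gene's strand, in the RefSeq sequence of TAIR10.1, and none of the windows overlaps an annotated exon, although that of MRD1 lies within the span of HEI10. Capitals mark TATAAA, the TATA box letters, on either strand; where the 2 orientations overlap they are written as 1 run.
MRD1 upstream: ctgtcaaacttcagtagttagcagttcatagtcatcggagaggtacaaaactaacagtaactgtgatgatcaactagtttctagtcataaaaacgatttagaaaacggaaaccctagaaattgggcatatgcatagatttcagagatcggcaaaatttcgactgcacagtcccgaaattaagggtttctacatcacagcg
AT5G11330 upstream: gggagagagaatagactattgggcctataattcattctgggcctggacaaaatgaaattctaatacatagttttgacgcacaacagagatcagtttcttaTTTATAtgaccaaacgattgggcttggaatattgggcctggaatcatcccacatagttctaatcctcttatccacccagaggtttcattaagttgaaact
CPK27 upstream: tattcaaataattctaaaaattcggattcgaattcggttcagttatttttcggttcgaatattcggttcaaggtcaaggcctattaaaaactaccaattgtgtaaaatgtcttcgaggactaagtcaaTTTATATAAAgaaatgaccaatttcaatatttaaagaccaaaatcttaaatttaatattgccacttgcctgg
CPK27 holds TATAAA forward from 68 bases and in reverse from 72 bases before its start, AT5G11330 holds it in reverse from 100 bases before its start, and the MRD1 window holds none. CACGTG, the G-box letters, occurs in none of the 3. Among the windows of the same length before 27443 protein-coding genes, 41% hold TATAAA on at least 1 strand and 5.64% hold CACGTG.

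Only 7 genes differed between OE and vtc4 at a limma adjusted p below 0.05, which is 0.0415% of the 16887 tested. Higher in OE were MRD1, VTC4, HEI10 and AT5G11330, or 0.0237% of genes, and lower in OE were AT1G64795, VTC2 and CPK27, or 0.0178%. An unadjusted p under 0.05 was reached by 958 genes, or 5.67%. The median log2 fold change over all genes was 2e-04, and its 5th and 95th percentiles were -0.20 and 0.18. The 95% confidence interval of the fitted fold change lay within 2-fold in either direction for 16670 genes, or 98.7%. The fit added a constant to each FPKM before taking logs, which shrinks the fold changes of low genes. For low genes the interval is therefore no bound on the ratio of the FPKM values themselves. Since bulk rosettes were used, fewer cells with a transcript and less transcript per cell cannot be told apart.

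**Figure D1:**
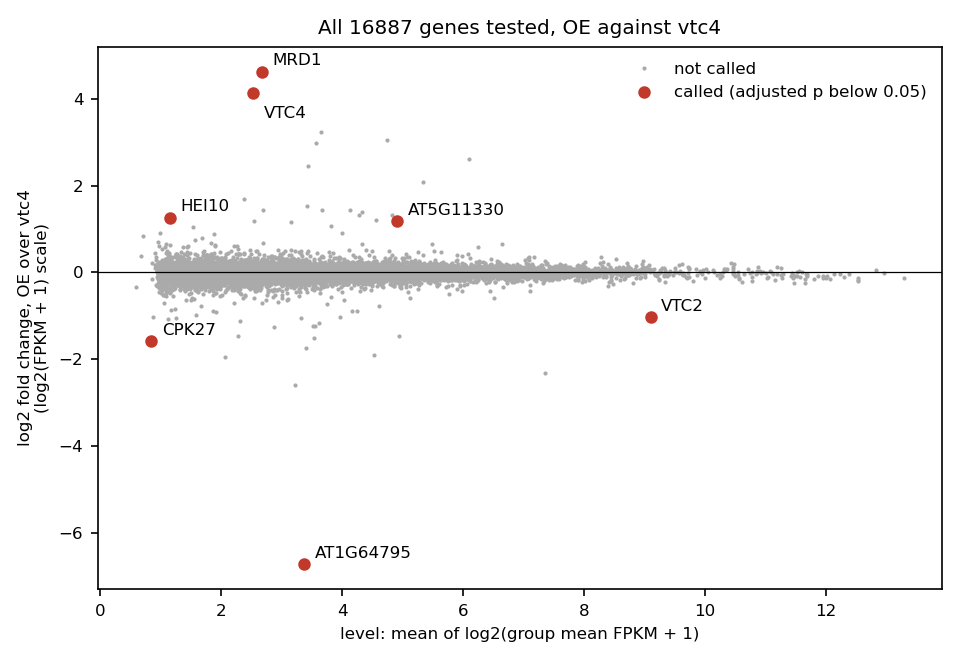
Log2 fold change of OE over vtc4 on the log2(FPKM + 1) scale (vertical axis) against the level of each gene, the mean over the 2 lines of log2(group mean FPKM + 1) (horizontal axis), for all 16887 genes tested. The 7 called genes are red and named, and the grey genes lie around 0, with a median of 2e-04.

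In the ascorbate route, both targeted genes were called and no other gene was. VTC4 (AT3G02870, chr3:627512-629925, minus strand, L-galactose 1-phosphate phosphatase) stood at 21.5, 21.5 and 26.8 FPKM in OE, against 0.426, 0.416 and 0.276 FPKM in vtc4. The lines were far apart, with an OE mean FPKM 62.4 times that of vtc4. The limma fit gave a log2 fold change of 4.14 (SE 0.11, limma adjusted p = 9.58e-07). This estimate is on the log2(FPKM + 1) scale, which shrinks the fold changes of values as low as those of vtc4. For description, vtc2 averaged 29.0 ± 1.48 FPKM and WT 28.3 ± 2.67 FPKM (SD, n = 3 each). Both of these means were above the OE mean of 23.3 ± 3.02 FPKM (SD, n = 3).

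VTC2 (AT4G26850, chr4:13498956-13501701, minus strand, GDP-L-galactose phosphorylase) stood at 411, 366 and 372 FPKM in OE, against 719, 781 and 849.6 FPKM in vtc4. Every OE library was below every vtc4 library, and the OE mean was 48.9% of the vtc4 mean (log2 fold change -1.03 with an SE of 0.08, limma adjusted p = 0.00262). The 95% confidence interval of the log2 fold change ran from -1.21 to -0.85. For description, WT libraries ranged from 745.5 to 899.7 FPKM, overlapping vtc4, and vtc2 libraries from 14.8 to 20.3 FPKM.

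The remaining 9 genes of the route were tested and not called, 7 of them with a positive and 2 with a negative fold change. GME, which makes the substrate of VTC2, had 381, 360.3 and 341 FPKM in OE and 329, 304 and 313 FPKM in vtc4. Its libraries did not overlap between the lines, but the difference missed the threshold (log2 fold change 0.19, SE 0.06, limma adjusted p = 0.807). VTC5, the paralogue of VTC2, had 19.1, 19.1 and 19.6 FPKM in OE and 20.4, 20.2 and 21.3 FPKM in vtc4, again without overlap (log2 fold change -0.10, limma adjusted p = 0.889). GLDH, the last enzyme, had 7.91, 9.14 and 9.24 FPKM in OE against 7.45, 7.79 and 7.94 FPKM in vtc4, where the lowest OE library lay below the highest vtc4 library (log2 fold change 0.16, limma adjusted p = 0.881). Of the enzymes that lead up to GDP-mannose, PMI1 had a log2 fold change of 0.05, PMM of -0.02 and VTC1 of 0.01. The KONJAC proteins, which activate VTC1, had 0.04 (KJC1) and 0.05 (KJC2), and GalDH had 0.04. Over all 11 genes of the list the median log2 fold change was 0.04, against 2e-04 over all genes.

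**Figure D2:**
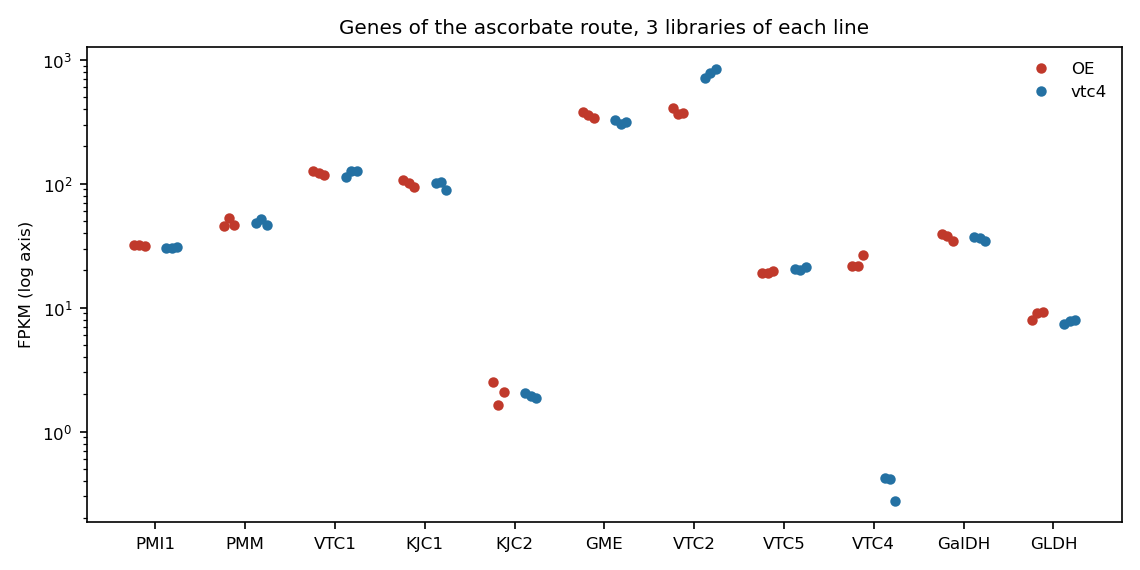
FPKM of the 11 genes of the ascorbate route (vertical axis, log scale) in the 3 OE libraries (red) and the 3 vtc4 libraries (blue), 1 point per library. VTC2 is lower and VTC4 higher in OE, and the points of the other 9 genes lie close together in both lines.

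Outside the route, 4 of the called genes had their WT level in OE and their vtc2 level in vtc4. MRD1 (AT1G53480, chr1:19963047-19964712, minus strand), named for a lower transcript in the methionine-accumulating mutant mto1, had 32.3, 31.8 and 27.9 FPKM in OE, against 0.369, 0.187 and 0.302 FPKM in vtc4. The gene was on in all 3 OE libraries and nearly absent in all 3 vtc4 libraries (log2 fold change 4.62, SE 0.09, limma adjusted p = 1.96e-07). For description, vtc2 averaged 0.213 FPKM, near vtc4, and WT 31.0 FPKM, near OE.

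HEI10 (AT1G53490, chr1:19963267-19966952, plus strand), a RING-finger protein needed for meiotic crossovers, had 2.43, 2.01 and 2.90 FPKM in OE, against 0.414, 0.521 and 0.362 FPKM in vtc4. It was higher in OE by a log2 fold change of 1.26 (SE 0.13, limma adjusted p = 0.0197), and the lines did not overlap. Its exons share 922 bases with those of MRD1 on the other strand, and since the strand setting of the quantification is not known, reads of the 2 genes cannot be told apart here. The call was lost without vtc4 replicate 1, 2 or 3 and without OE replicate 1 or 3, where limma adjusted p was 0.12, 0.13, 0.129, 0.21 and 0.0644. The noncoding transcript AT1G07887, which overlaps both genes and was below the filter, had 0.373, 0.473 and 0.751 FPKM in OE and was listed at 0 in all 3 vtc4 libraries.

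AT5G11330 (chr5:3617138-3618913, minus strand), annotated as a member of the FAD/NAD(P)-binding oxidoreductase family, had 46.7, 43.7 and 42.1 FPKM in OE, against 20.7, 18.16 and 17.7 FPKM in vtc4. Its level in OE was 2.34 times that in vtc4 (log2 fold change 1.19, SE 0.07, limma adjusted p = 0.000925), with a wide gap between the lines. The WT mean of 44.1 FPKM was at the OE level, and the vtc2 mean of 18.8 FPKM at the vtc4 level.

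AT1G64795, an uncharacterized gene, was listed at 0 in all 3 OE libraries and stood at 95.4, 127 and 96.1 FPKM in vtc4 (limma adjusted p = 8.49e-08). No fold is given, because the OE values are all 0. Of the WT libraries, replicate 2 had 0.836 FPKM and the others 0, while vtc2 averaged 95.8 FPKM. ILA, the HEAT-repeat gene on the opposite strand, had 6.26, 6.19 and 7.59 FPKM in OE and 7.19, 5.89 and 7.67 FPKM in vtc4, with overlapping libraries (log2 fold change -0.04, limma adjusted p = 0.981).

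CPK27 (AT4G04700, chr4:2385038-2388105, minus strand), a calcium-dependent protein kinase, had another pattern. It stood at 0.0752, 0 and 0.0239 FPKM in OE, against 2.21, 1.78 and 2.36 FPKM in vtc4 (log2 fold change -1.59, SE 0.12, limma adjusted p = 0.00262). It was low in OE only, since vtc2 averaged 2.47 FPKM and WT 2.26 FPKM.

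At 2 other loci the OE mean was nearer to vtc2 than to WT. AT1G75945 (chr1:28515245-28515916, minus strand, uncharacterized) had 10.3, 8.18 and 8.60 FPKM in OE and 10.2, 11.7 and 10.2 FPKM in vtc4. The lines overlapped and no difference was called (log2 fold change -0.22, limma adjusted p = 0.879). The vtc2 mean was 9.17 FPKM, whereas WT had 0, 0.272 and 0 FPKM. AT5G13565, which has 125 exonic bases, all of them opposite exons of AT5G13560, had 61.3, 32.5 and 76.8 FPKM in OE, against 30.0, 37.4 and 33.3 FPKM in vtc4, with overlap (log2 fold change 0.66, limma adjusted p = 0.876). Its means were 74.9 FPKM in vtc2 and 7.78 FPKM in WT. Without OE replicate 2, the low OE library, it was called higher in OE (log2 fold change 1.02, limma adjusted p = 0.0497). At 5 more loci OE was nearer to WT than to vtc2, as it was for MRD1, HEI10, AT5G11330 and AT1G64795, but so was vtc4. SQP1 averaged 48.6 FPKM in OE and 46.0 FPKM in vtc4, with means of 19.9 FPKM in vtc2 and 48.6 FPKM in WT. MES18, AT1G24580 and AT1G74290 likewise had their lowest mean in vtc2. The log2 fold changes between OE and vtc4 were 0.08 for SQP1, -0.04 for MES18, 0.07 for AT1G24580 and 0.08 for AT1G74290, and none was called. The noncoding AT3G15536 averaged 7.18 FPKM in OE and 10.6 FPKM in vtc4, with 29.4 FPKM in vtc2 and 10.5 FPKM in WT, and was not called either (log2 fold change -0.54, limma adjusted p = 0.852).

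**Figure D3:**
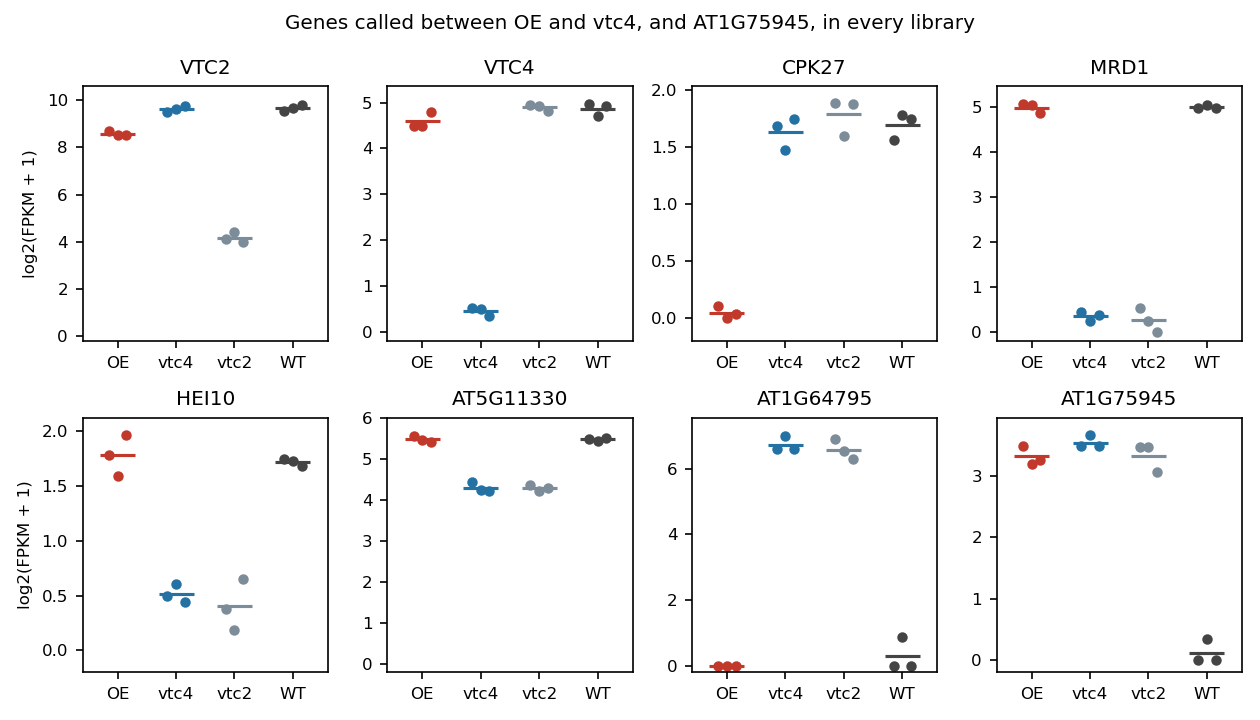
Level of the 7 called genes and of AT1G75945 in every library, as log2(FPKM + 1) (vertical axis), for OE, vtc4, vtc2 and WT; points are libraries and bars their means (n = 3). MRD1, HEI10, AT5G11330 and AT1G64795 have OE with WT and vtc4 with vtc2, CPK27 is low in OE only, and AT1G75945 is near 0 in WT only.

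No tested neighbour of a called gene was called, leaving aside MRD1 and HEI10, which overlap each other. Of 37 other genes annotated within 3 places of the called genes, 18 were tested, and limma called 0 of them (1 with an unadjusted p under 0.05). Their log2 fold changes ran from -0.13 to 0.34. The neighbours of VTC2 and VTC4 were part of the rule for named genes; those of the other called genes were added after their values were seen. AT3G02860, which lies 20 bases from VTC4, had the highest value, with 17.7, 17.5 and 14.0 FPKM in OE against 12.1, 13.7 and 12.3 FPKM in vtc4 (log2 fold change 0.34, limma adjusted p = 0.807). AT4G26860, beside VTC2, had -0.13. CPK31 and CPK21, kinases of the same family beside CPK27, had 0.08 and 0.00. YUC4, an auxin synthesis gene 2 places from AT5G11330, was below the filter with 0.135 to 0.317 FPKM in OE and 0.111 to 0.236 FPKM in vtc4.

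**Figure D4:**
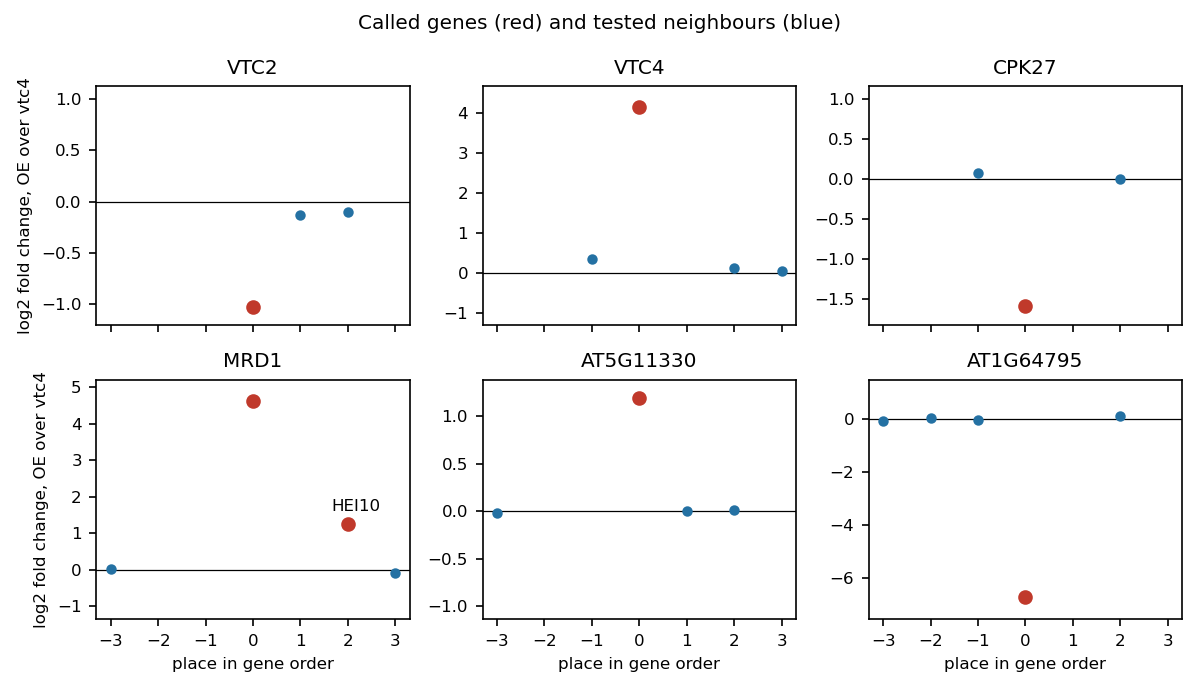
Log2 fold change of OE over vtc4 (vertical axis, log2(FPKM + 1) scale) for 6 called genes (red, place 0) and those of their 3 annotated neighbours on each side that were tested (blue; 1 neighbour is not shown), by place in gene order (horizontal axis). Apart from HEI10, which overlaps MRD1, the neighbours lie between -0.13 and 0.34.

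With so few calls, the 12 genes of each direction with the smallest unadjusted p among those without overlap between the lines and with a mean of at least 1 FPKM over the 6 libraries were also described; 17 of these 24 were not called, and their limma adjusted p ran from 0.0618 to 0.523. Absence of overlap is common here: it held for 1910 genes, or 11.3% of those tested, 957 of them with OE higher (5.67%) and 953 with OE lower (5.64%). The 17 genes are therefore given as values. DR4, a protease inhibitor-like gene named for its repression by drought, had 9.34, 8.59 and 10.6 FPKM in OE, against 16.8, 17.0 and 15.2 FPKM in vtc4 (log2 fold change -0.73, SE 0.09, limma adjusted p = 0.0618). It passed the threshold without OE replicate 3 (limma adjusted p = 0.0446), with library weights (0.0166) and with robust moderation (0.0254). AT2G19970, a relative of the pathogenesis-related protein PR1, had 1.46, 1.22 and 1.60 FPKM in OE and 3.00, 3.06 and 3.43 FPKM in vtc4 (log2 fold change -0.78, limma adjusted p = 0.111; 0.0497 without the mean-variance trend). Here WT, at a mean of 1.38 FPKM, was near OE, and vtc2, at 2.76 FPKM, near vtc4. The gene was not alone in this, since the WT mean was nearer to OE than to vtc4 in 7 of the 17. The noncoding AT3G06125 had 72.1, 73.5 and 75.4 FPKM in OE, against 118, 119 and 96.8 FPKM in vtc4 (log2 fold change -0.58, limma adjusted p = 0.173, and 0.0196 without vtc4 replicate 3).

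On the higher side, SOFL2, a member of a small family tied to cytokinin, had 15.8, 14.7 and 14.7 FPKM in OE, against 10.13, 10.5 and 11.3 FPKM in vtc4 (log2 fold change 0.47, limma adjusted p = 0.19). AT1G42430 had 139, 124 and 110.5 FPKM in OE, against 88.8, 74.8 and 73.3 FPKM in vtc4 (log2 fold change 0.65, limma adjusted p = 0.287). The libraries of the lines did not overlap for either gene, but neither passed the threshold. MIOX1, which oxidises myo-inositol to glucuronate, had 4.85, 4.81 and 4.44 FPKM in OE, against 2.69, 3.36 and 2.22 FPKM in vtc4 (log2 fold change 0.61, limma adjusted p = 0.523). DOG1, known for seed dormancy, had 5.30, 5.07 and 4.11 FPKM in OE and 2.75, 3.11 and 3.08 FPKM in vtc4 (log2 fold change 0.55, limma adjusted p = 0.508). The other 4 higher genes, AT3G62460, AT1G18265, AT3G29631 and the chloroplast gene ATCG00660, had log2 fold changes of 0.67, 0.62, 0.61 and 0.65. The other 6 lower ones, AT5G24610, AT4G38370, AT5G52070, AT1G52720, ENSRNA049495550 and ENSRNA049493789, had -0.34, -0.38, -0.40, -0.45, -1.03 and -1.25. The mean of at least 1 FPKM kept out 2 genes with p-values as small. AT1G11785, an uncharacterized gene, had 0.257, 0.419 and 0.164 FPKM in OE, against 1.17, 1.49 and 2.21 FPKM in vtc4 (log2 fold change -1.02, limma adjusted p = 0.312). The noncoding AT2G06995 had 1.01, 1.05 and 1.54 FPKM in OE, against 0.174, 0.367 and 0.118 FPKM in vtc4 (log2 fold change 0.85, limma adjusted p = 0.378). Neither overlapped between the lines, and neither was called.

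A fold of 2 or more on the log2(FPKM + 1) scale was reached by 45 genes, 24 higher and 21 lower in OE, of which 38 were not called. These 38 included 16 IDs starting with ENSRNA, whose lengths were not available here, 8 small nuclear or nucleolar RNAs and 4 chloroplast genes. In 27 of the 38 the libraries of the lines overlapped. Another 4 were plant defensins of the PDF1 family, small antimicrobial proteins used as jasmonate and ethylene outputs, all with positive values. PDF1.2A had 177, 125 and 41.6 FPKM in OE, against 44.9, 40.6 and 28.5 FPKM in vtc4 (log2 fold change 1.36, SE 0.46, limma adjusted p = 0.811). PDF1.2c had 69.2, 54.6 and 16.5 FPKM in OE, against 18.4, 18.4 and 10.6 FPKM in vtc4 (log2 fold change 1.33). PDF1.2b and PDF1.3 had log2 fold changes of 1.31 and 1.197. In all 4, OE replicates 1 and 2 were high and OE replicate 3 lay within the range of vtc4. Without OE replicate 3, PDF1.2A was called (log2 fold change 1.96, limma adjusted p = 0.0497). These defensins are close paralogues, so that reads may be split between them.

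Pathway genes were read from 29 lists with 517 genes, of which 421 were tested. Only VTC2 and VTC4 were called among them. An unadjusted p under 0.05 was reached by 34 of the 421, these 2 included, and by 5.67% of all genes. The lines did not overlap for 46 listed genes, 15 higher and 31 lower in OE, which is 10.9% and close to the 11.3% of all genes. Over all genes the directions were even, with 957 higher and 953 lower in OE. For 409 of the 421 the 95% confidence interval lay within 2-fold on the log2(FPKM + 1) scale, which shrinks the fold changes of low genes.

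The auxin lists were of interest because the study's title ties ascorbate to auxin biosynthesis. Of 20 auxin biosynthesis genes, 9 were tested and limma called 0 (1 with an unadjusted p under 0.05), with a median log2 fold change of -0.005. TAA1, the tryptophan aminotransferase that makes indole-3-pyruvate, had 7.80, 5.80 and 8.57 FPKM in OE, against 5.34, 5.69 and 5.44 FPKM in vtc4. All OE values were above those of vtc4, by a log2 fold change of 0.36 (SE 0.12, limma adjusted p = 0.842). TAR2, its relative, had 4.13, 4.84 and 4.86 FPKM in OE and 4.97, 5.24 and 5.17 FPKM in vtc4 (log2 fold change -0.13). NIT3, a nitrilase, had a log2 fold change of -0.18 with overlapping libraries. The other 11 genes were below the filter.

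Downstream of synthesis limma called no listed gene. Of 16 genes of auxin conjugation and catabolism 11 were tested, limma called 0 (0 with an unadjusted p under 0.05), and the conjugating enzymes GH3.3 and GH3.9 had log2 fold changes of -0.12 and -0.14. The hydrolase ILR1, also a neighbour of VTC4, had 0.13. Among 21 tested Aux/IAA repressors limma called 0 (2 with an unadjusted p under 0.05), with a median of -0.004; IAA8 had 118, 110.4 and 120.4 FPKM in OE against 130.3, 140 and 128 FPKM in vtc4 (log2 fold change -0.19, limma adjusted p = 0.807). Of 20 tested SAUR growth genes limma called 0 (1 with an unadjusted p under 0.05), with a median of -0.02, and SAUR20 had the smallest p (log2 fold change -0.32, limma adjusted p = 0.827). The 12 tryptophan biosynthesis genes, which feed auxin and indole glucosinolates, had a median of 0.07, with 10 positive and 2 negative values, 0 called by limma and 1 with an unadjusted p under 0.05.

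Genes that use or recycle ascorbate were close to the centre of all genes. The 22 tested genes of the ascorbate-glutathione cycle had log2 fold changes from -0.22 to 0.23 with a median of 0.02, and limma called 0 (0 with an unadjusted p under 0.05). The 21 other antioxidant genes had a median of -0.03, with 0 called and 2 with an unadjusted p under 0.05. Of these, CAT2, the main leaf catalase, had 1600.0, 1562 and 1401 FPKM in OE, against 1347, 1405 and 1259 FPKM in vtc4 (log2 fold change 0.19, limma adjusted p = 0.872). CSD2, the chloroplast copper/zinc superoxide dismutase, had 402.5, 367.5 and 450.2 FPKM in OE, against 461, 547.5 and 450.8 FPKM in vtc4 (log2 fold change -0.26, limma adjusted p = 0.86). Among 4 tested ascorbate regulators, PLP had 0.24 and VTC3 -0.15, and limma called 0 (0 with an unadjusted p under 0.05). Of 17 inositol genes, the other substrate class of VTC4, limma called 0 (1, MIOX1, with an unadjusted p under 0.05), and the median was 0.03. IMPL2 and ITPK1 had 0.17 and -0.10.

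Salicylate genes varied between libraries of the same line. In the 27 tested salicylate genes the median log2 fold change was -0.12, with 6 positive and 21 negative values, 0 called by limma and 1 with an unadjusted p under 0.05. OE replicate 2 was the highest OE library in 27 of 27 of these genes, with a summed level of 887.5 FPKM, against 418 and 365 FPKM in OE replicates 1 and 3 and 508 to 606.5 FPKM in vtc4. The list median was -0.49 without OE replicate 2 and 0.09 without OE replicate 3; the part of OE replicate 2 in the levels below was not tested. ICS1, the main enzyme of salicylate synthesis, had 3.88, 7.37 and 4.51 FPKM in OE, against 7.38, 7.76 and 8.21 FPKM in vtc4 (log2 fold change -0.53, limma adjusted p = 0.816). PR1, the classical marker, had 22.5, 103 and 18.7 FPKM in OE and 33.0, 32.7 and 23.2 FPKM in vtc4 (log2 fold change 0.26, limma adjusted p = 0.979). LURP1 had 31.2, 125 and 14.3 FPKM in OE and 51.3, 34.0 and 62.9 FPKM in vtc4, with the lines overlapping for both PR1 and LURP1. Jasmonate genes had a median of 0.04 over 25, with 0 called and 4 with an unadjusted p under 0.05, among them PDF1.2A and VSP2 (log2 fold change -0.46, limma adjusted p = 0.807).

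Most members of the photosynthesis list had negative and most of the senescence list positive values. Among 21 photosynthesis genes 20 were negative and 1 positive, with a median log2 fold change of -0.13. Limma called 0, and 3 had an unadjusted p under 0.05, which 5.67% of all genes reached. In 6 of the 21, or 28.6%, the lines did not overlap, against 11.3% of all genes. LHCB1.2, an antenna protein of photosystem II, had 3059, 2645 and 3153 FPKM in OE, against 3313, 3757 and 3384 FPKM in vtc4 (log2 fold change -0.24, limma adjusted p = 0.852). OE replicate 2 was the lowest OE library in 19 of the 21 genes, and vtc4 replicate 2 the highest vtc4 library in 21 of 21. The median was -0.07 without vtc4 replicate 2 and -0.02 after quantile normalization, and the part of single libraries was not tested. Among 18 senescence and sugar starvation genes 16 were positive and 2 negative, with a median of 0.21, 0 called and 2 with an unadjusted p under 0.05. ASN1, an asparagine synthetase induced in darkness, had 183, 173 and 180.0 FPKM in OE, against 171, 151 and 126 FPKM in vtc4 (log2 fold change 0.27, limma adjusted p = 0.854). SEN1 and DIN10, also dark-induced, had 0.36 and 0.33, with overlapping libraries. The senescence marker SAG12 had 5.07, 0.142 and 9.11 FPKM in OE and 1.23, 9.64 and 0.179 FPKM in vtc4. The median of the list was 0.14 without OE replicate 1 and 0.15 without vtc4 replicate 3.

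Of the remaining 12 lists limma called 0 members, with 3 guard cell, 2 cell wall, 2 abscisate, cold and drought genes, and 1 flavonoid, photoprotection, aliphatic glucosinolate, heat shock, touch and ER body gene each at an unadjusted p under 0.05. The iron, phosphate and indole glucosinolate lists had 0 such genes. The highest medians among these lists were 0.09 for the 13 heat shock genes and 0.09 for the 14 indole glucosinolate and camalexin genes. The lowest were -0.08 for the 13 guard cell genes and -0.06 for the 22 cell wall genes. The 18 abscisate, cold and drought genes had 0.06 and the 17 touch genes 0.02. The medians of the flavonoid, photoprotection, aliphatic glucosinolate and iron lists were -0.04, -0.04, -0.02 and -0.04, and those of the phosphate and ER body lists 0.004 and 0.003. FLS1, flavonol synthase, had 4.21, 4.61 and 5.03 FPKM in OE, against 5.85, 6.89 and 8.82 FPKM in vtc4 (log2 fold change -0.53, limma adjusted p = 0.796). EPF2, a peptide that limits stomatal divisions, had 0.806, 0.789 and 0.83 FPKM in OE, against 1.51, 1.59 and 1.41 FPKM in vtc4 (log2 fold change -0.47, limma adjusted p = 0.624). HSP70-4 had 22.0, 25.6 and 24.4 FPKM in OE, against 11.6, 16.9 and 16.9 FPKM in vtc4 (log2 fold change 0.65, limma adjusted p = 0.624). None of the 3 overlapped between the lines. XTH24, a cell wall enzyme, had 153, 157.5 and 135.5 FPKM in OE, against 124, 126.5 and 114 FPKM in vtc4 (log2 fold change 0.29, limma adjusted p = 0.807). The cold-regulated COR47 had 87.6, 87.3 and 87.4 FPKM in OE, against 69.1, 79.7 and 78.2 FPKM in vtc4 (log2 fold change 0.21, limma adjusted p = 0.807). PYK10, the ER body glucosidase, had 20.5, 18.7 and 21.3 FPKM in OE, against 24.0, 22.5 and 30.4 FPKM in vtc4 (log2 fold change -0.32, limma adjusted p = 0.816). The 17 tested clock genes stayed between -0.14 and 0.16, with a median of -0.003 and 0 with an unadjusted p under 0.05.

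**Figure D5:**
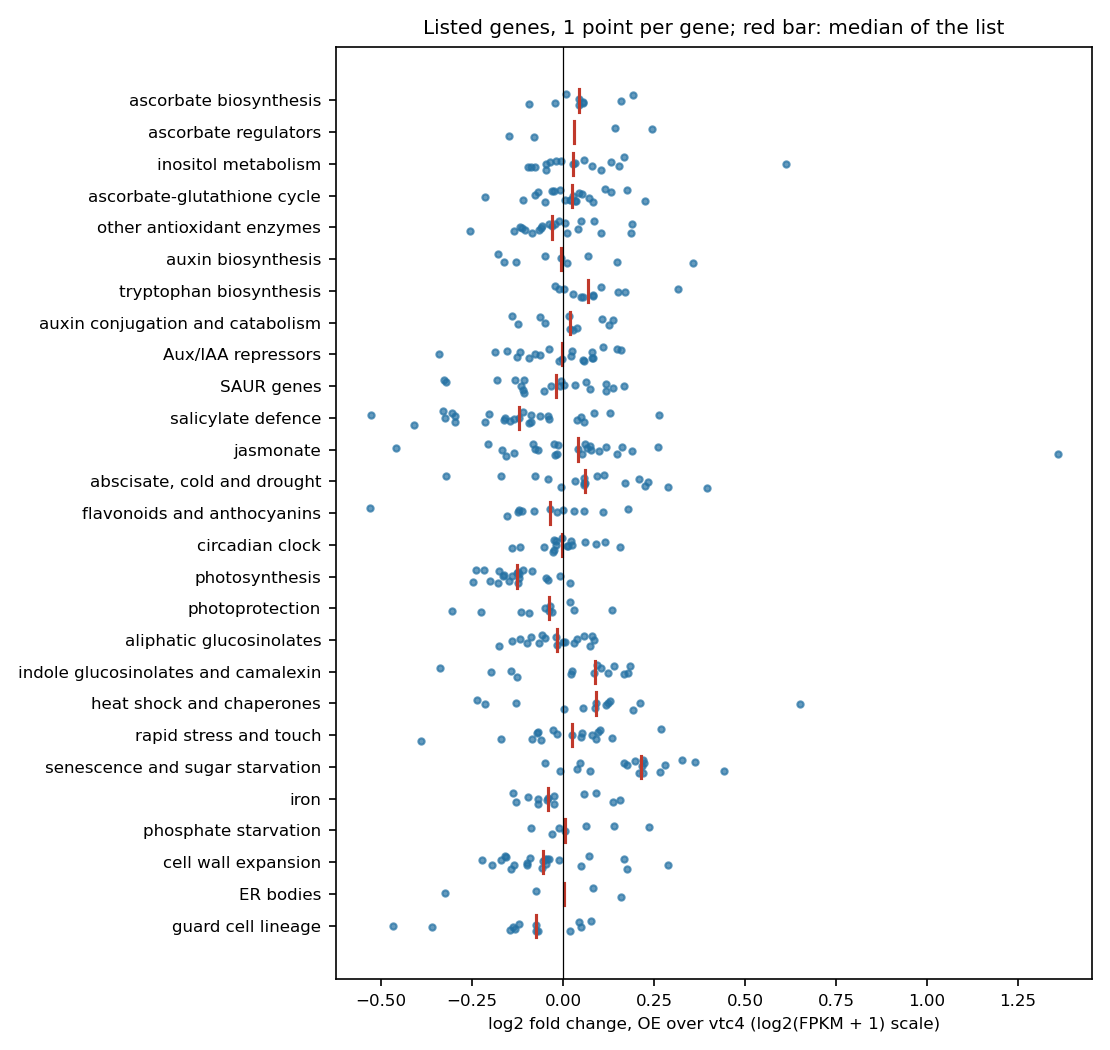
Log2 fold change of OE over vtc4 (horizontal axis, log2(FPKM + 1) scale) for the tested genes of the 27 lists with at least 3 of them, 1 point per gene, with the list median as a red bar. VTC2 and VTC4 count in the ascorbate biosynthesis median but lie outside the axis; medians range from -0.13 for photosynthesis to 0.21 for senescence and sugar starvation.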

How the data were processed

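RNA from 12 Arabidopsis rosette pools (Trizol, stranded mRNA libraries, read pairs of 75 bases, per the labels' protocols) was quantified by the authors, who deposited a single table of FPKM values, a column for each library. Trimmomatic 0.36, HISAT2 2.1.0, Cufflinks 2.2.1, Cuffdiff and the build TAIR10 are named in the submitters' processing notes; which annotation, strand setting or normalization option was chosen is not given in the sources used here. FPKM divides by transcript length and library size, so that depth is unknown and short transcripts take large values from few reads. Symbols, positions, overlaps and sequences came from RefSeq's TAIR10.1, which held 32217 of the 33618 table IDs and 16786 of the 16887 tested; the table holds no coordinates.

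The 3 OE and 3 vtc4 libraries were fitted alone in limma (version 3.58.1, R 4.3.3) after the transformation log2(FPKM + 1), with empirical Bayes moderation, a mean-variance trend and two-sided tests; a call needed an adjusted p under 0.05 (Benjamini-Hochberg, all tested genes). Since 1 was added to each FPKM, the fold changes of low genes are understated. The model had 4 residual degrees of freedom, 8.09 after moderation (median), and the median standard error was 0.0877. Separate plant pools are labelled as independent replicates. The procedure was tested on simulated data with noise drawn independently for each library. Changes were planted only in genes of higher level, so low genes such as CPK27 and HEI10 were not covered. No other columns of values were in the table.

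The comparison, its gene lists and the naming rule were chosen with earlier results of these data known. Named are VTC2 and VTC4 with their 3 neighbours on each side, the called genes, the 12 of each direction with the smallest unadjusted p among genes without overlap and with a mean of at least 1 FPKM (since fewer than 10 were called in each; the rule set this mean for called genes, and it was applied here too), up to 4 called members of each list, the 3 members with the smallest p of 4 ascorbate, inositol and auxin lists, and the list of genes named earlier. Other genes were picked after their values were seen. WT and vtc2 values are a description with no test. The values of 1 neighbour gene are not reported here. Another 18 settings were tried, and the closing section gives their effect.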

Additional observations from a re-analysis of the deposited data

How the results depend on the processing

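The call of 7 genes kept within 4 to 9 genes over 18 alternatives: pseudocounts of 0.1 and 0.5, no filter, median-ratio, TPM and quantile rescaling and a model of all 12 libraries each left 7, the last with 846 genes at an unadjusted p under 0.05. Library weights and robust moderation each called 8, DR4 included, and leaving out the trend called 8 with AT2G19970. A mean FPKM of at least 5 left 5, since CPK27 and HEI10 were then not tested. With each library left out in turn, 6 to 9 genes were called, 3 to 6 higher and 3 to 4 lower in OE, with 6 to 7 of the 7 among them and 2 to 3 listed genes; the additions were DR4, PDF1.2A, AT3G06125, AT5G13565 and, without vtc4 replicate 1, AT1G04193, AT2G04955 and ENSRNA049493684. Left out in turn, VTC2 ran from -1.09 to -0.97 and VTC4 from 4.04 to 4.19. With a pseudocount of 0.1 VTC4 reached 5.64. Rescaling to TPM moved the median over all genes to 0.0173.

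Deviations of same-numbered OE and vtc4 libraries correlated at -0.088, -0.162 and 0.234, and those of differently numbered ones at -0.203 to 0.258. Only the libraries numbered 3 correlated best with their own number. OE replicate 1 did so with vtc4 replicate 2 (0.239), and OE replicate 2 with vtc4 replicate 1 (0.258). With 3 libraries per line these values are a description, and whether the numbers mark shared batches was not tested. With the replicate block 4 genes were called, all of them among the 7, with 1 lower in OE and 1 listed gene left. VTC2 kept its log2 fold change of -1.03 (limma adjusted p = 0.0687), and limma adjusted p was 0.0546 for CPK27 and 0.249 for HEI10. The cause was not tested.

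Among the named genes, signs turned in 4 that were not called. Left out in turn, ILR1 ran from -0.0316 (without vtc4 replicate 1) to 0.2182, MES18 from -0.1962 to 0.0867, AT1G24580 from -0.0419 to 0.1566 and AT1G74290 from -0.0149 to 0.1536. MES18 had 0.0886 with library weights, 0.0284 without vtc4 replicate 1 and 0.0867 without OE replicate 3. AT1G24580 had -0.0343 without vtc4 replicate 1 and its lowest value without OE replicate 2, and AT1G74290 had its lowest value without vtc4 replicate 1. Some list medians also moved by more than the spread of their libraries. The inositol median was -0.0126 without vtc4 replicate 3. Without vtc4 replicate 2, the medians of other antioxidants and of auxin conjugation were 0.0134 and -0.0365. The ascorbate biosynthesis median ran from 0.0031 (without OE replicate 1) to 0.082 (library weights).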

Other observations

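The chloroplast genome genes summed to 304, 631.5 and 743 FPKM in OE and to 292, 424 and 367 FPKM in vtc4. Of 37 tested, limma called 0 (9 with an unadjusted p under 0.05, a bound met by 5.67% of all genes), and the median log2 fold change was -0.06. IDs starting with ENSRNA summed to 1288, 1384 and 1179 FPKM in OE, all below the 1553, 1527 and 1423 FPKM in vtc4. For description, the sums were 1812, 1333 and 1550 FPKM in WT and 1180, 1171 and 2324 FPKM in vtc2, so libraries of the same line also differed. Of 59 tested, limma called 0 (11 with an unadjusted p under 0.05, against 5.67% of all genes), with 21 positive and 38 negative values.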
